A study of Mus musculus with 18 samples.

Results

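The imprinted genes Dlk1, Meg3, H19, Igf2, Kcnq1 and Cdkn1c were described through the H3K4me3 peaks of 4 windows of the mouse genome (build mm9) that hold them. The windows were the Dlk1-Meg3 window on chromosome 12 (110680000 to 110830000, 150 kb), and on chromosome 7 the H19 window (149750000 to 149780000, 30 kb), the Igf2 window (149830000 to 149855000, 25 kb) and the Kcnq1-Cdkn1c window (150000000 to 150760000, 760 kb). A peak was taken when it overlapped a window by at least 1 bp, and its whole length was counted. This gave 22 of 21905 peaks in control islets and 20 of 21434 peaks in Men1 knockout islets. The rule uses positions around the genes and no measured value.

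The series holds ChIP-seq of islet and islet tumour chromatin in 18 samples, and the peak lists of 2 of them were used here. The control list is H3K4me3 of pancreatic islets from RIP-Cre mice at 2 months of age, in which the rat insulin promoter drives Cre recombinase. The knockout list is H3K4me3 of pancreatic islets from mice of 2 months in which Men1, the gene of menin, is knocked out in islets (islet-specific knockout). Both groups share the mixed strain background of 129s6, FVB/N and C57BL/6. The labels name neither the driver of the Men1 knockout nor the number of animals per library. Each genotype has 1 library, so no test was made, and a difference between the lists is a difference between these 2 libraries. Depth is unknown, and the lists do not separate the parental alleles.

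Imprinted genes are expressed mainly from the allele inherited from one parent, and the choice is set by DNA methylation at a control region shared by the genes of a cluster. Dlk1 and Igf2 are expressed from the paternal allele, and Meg3, H19 and Cdkn1c from the maternal one. H3K4me3 marks active and poised promoters, and at an imprinted promoter it lies mainly on the active allele. Menin is a subunit of complexes that methylate lysine 4 of histone H3, and the comparison asks how this mark differs when menin is lost from islets. Dlk1 encodes a membrane protein related to Notch ligands, Meg3 and H19 are long non-coding RNAs, and Igf2 encodes an insulin-like growth factor. Kcnq1 encodes a potassium channel subunit, and Cdkn1c encodes the cell cycle inhibitor p57Kip2, which restrains beta cell proliferation.

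Sequence upstream of the annotated starts was matched by symbol in RefSeq (GRCm38.p6) for 3 of the 6 members, Dlk1, Meg3 and Igf2. H19, Kcnq1 and Cdkn1c had no entry. CpG dinucleotides, the sites of DNA methylation, are shown in capitals in 4 sequences of 250 bases. Each sequence ends just before a start and is written 5′ to 3′ on the strand of the gene. Whether these sequences overlap the control regions that set imprinting was not determined. The sequences are shown because the annotated starts of these genes, those of Igf2 included, differ in CpG content. The positions are those of GRCm38.p6 and cannot be set against the mm9 positions of the peaks.
Dlk1 (plus strand, chr12:109452573-109452822): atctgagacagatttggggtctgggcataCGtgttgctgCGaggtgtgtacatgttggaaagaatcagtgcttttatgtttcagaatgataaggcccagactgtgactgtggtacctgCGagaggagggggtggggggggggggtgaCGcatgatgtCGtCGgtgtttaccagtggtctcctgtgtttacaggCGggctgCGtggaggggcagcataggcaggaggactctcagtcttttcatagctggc
Meg3, first start (plus strand, chr12:109540746-109540995): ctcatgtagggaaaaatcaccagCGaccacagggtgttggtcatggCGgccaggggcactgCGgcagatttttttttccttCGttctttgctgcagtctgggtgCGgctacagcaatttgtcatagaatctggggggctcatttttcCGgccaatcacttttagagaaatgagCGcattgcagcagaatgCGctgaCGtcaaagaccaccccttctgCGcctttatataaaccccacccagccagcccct
Igf2, start 1 of 4 (minus strand, chr7:142666817-142667066): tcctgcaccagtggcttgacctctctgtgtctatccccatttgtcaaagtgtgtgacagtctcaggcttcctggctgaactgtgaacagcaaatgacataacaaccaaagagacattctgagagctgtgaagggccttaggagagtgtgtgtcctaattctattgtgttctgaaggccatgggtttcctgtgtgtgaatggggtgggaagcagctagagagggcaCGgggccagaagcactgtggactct
Igf2, start 3 of 4 (minus strand, chr7:142658805-142659054): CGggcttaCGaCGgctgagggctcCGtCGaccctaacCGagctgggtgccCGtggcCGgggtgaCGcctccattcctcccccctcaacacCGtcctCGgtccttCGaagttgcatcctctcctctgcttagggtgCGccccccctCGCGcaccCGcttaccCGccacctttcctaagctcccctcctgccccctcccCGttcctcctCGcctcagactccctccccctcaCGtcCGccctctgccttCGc

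The Dlk1 sequence holds 8 CpG dinucleotides, and 57.0% of the 32851 promoters in the RefSeq table hold fewer. The first start of Meg3 has 10, and the other Meg3 start has 0. The 4 Igf2 starts have 1, 10, 22 and 6 in their order along the gene. The table's median is 6 CpG, and 85.2% of all promoters hold fewer than start 3 of Igf2. Meg3's first start also holds the cAMP response element TGACGTCA, which begins 57 bases before the start and contains 1 of the CpG sites, and a TATAAA box. Searched on both strands, TGACGTCA is present in 1.55% and TATAAA in 12.4% of all promoters of this length. Neither was found upstream of the other Dlk1, Meg3 or Igf2 starts.

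Over the 4 windows together, H3K4me3 covered nearly the same length in both lists, while single loci differed in both directions. The control peaks covered 43843 bp and the knockout peaks 42726 bp, or 97.5% of the control length (log2 ratio -0.04). Over the whole lists the knockout covered 90.1% of the control length (42.4 and 38.3 Mb). The Dlk1-Meg3 window held less in the knockout list, the Igf2 window more, and the other windows almost the same. The scores, given by the authors for each peak, ranged from 64.0 to 3100 in the control list and from 126 to 3100 in the knockout list. A score of 3100, at which many peaks of each list are tied, was reached by 5 member peaks in each list. That was 22.7% of the control and 25% of the knockout member peaks. Over the whole lists, 41.3% of control and 33.4% of knockout peaks scored 3100 or more.

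**Figure D1:**
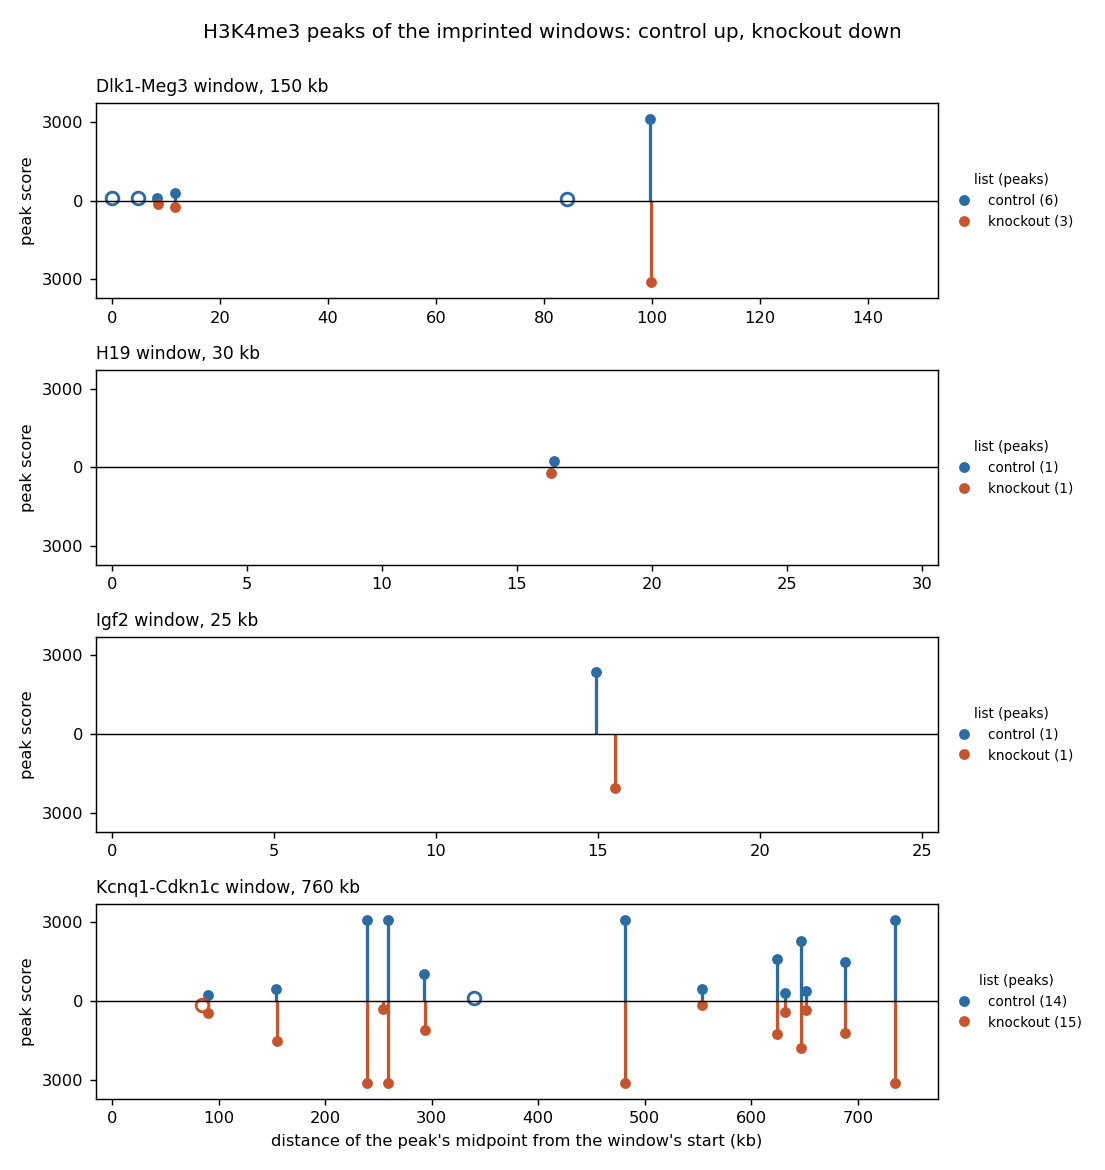
Peaks of the 4 windows by position (x axis, kb from the start of the window) and score (y axis, control upward and knockout downward). Each stem stands at a peak's midpoint, and widths are not drawn. Open circles mark the 4 control and 1 knockout peaks that overlapped no peak of the other list, all with scores under 200. Most peaks without a partner in the whole lists also scored under 200.

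At the Dlk1-Meg3 window, the highest-scoring peak was kept in the knockout list and small control peaks were missing from it. The window held 6 control peaks that covered 7607 bp and 3 knockout peaks that covered 5051 bp, or 66.4% of the control length (log2 ratio -0.59). In the RefSeq gene order (GRCm38.p6) Dlk1 comes before Meg3, with 0 protein-coding genes between their starts. Since gene positions of mm9 were not used here, single peaks of this window were not assigned to one of these genes.

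The peak farthest along the window, on chromosome 12 at 110778015 to 110781422 in the control list, was 3408 bp wide with a score of 3100. Its knockout partner (110778222 to 110781398) was 3177 bp wide, also with a score of 3100. This was the widest peak of the window in both lists, wider than 91.5% of control peaks and 91.6% of knockout peaks. The knockout width was 93.2% of the control width, a log2 ratio of -0.10 against a median of -0.11 over all pairs of the lists. The left border lay 207 bp further in and the right border 24 bp further in. The most prominent H3K4me3 domain of the Dlk1-Meg3 window thus differed by about as much as the median pair of the genome.

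Near the start of the window, 2 narrower peaks were also present in both lists. The peak at 110691017 to 110692222 was 1206 bp wide with a score of 304 in the control list, and 1103 bp wide with a score of 248 in the knockout list (log2 ratio -0.13). The peak at 110688018 to 110688765 was 748 bp wide with a score of 111 in the control list, and 771 bp wide with a score of 136 in the knockout list (log2 ratio 0.04). The widths of these pairs therefore moved by 103 bp or less.

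The remaining 3 control peaks of this window overlapped no knockout peak. They were 656 bp (110679720 to 110680375, score 80.0), 800 bp (110684353 to 110685152, score 104) and 789 bp (110763865 to 110764653, score 64.0). The nearest knockout peaks lay 7.65, 2.88 and 13.6 kb away. All 3 were among the weakest of the control list, in which 10.9% of peaks or fewer scored lower. At the 3 regions marked in both lists the covered length differed by 23, -103 and -231 bp (knockout minus control), so most of the difference in this window lay in these weak peaks. The control list had a gap of 71.6 kb between its peaks in the middle of the window, and the knockout list, without the peak at 110763865, a gap of 86.1 kb.

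The H19 window held a single small peak in each list. It was 1172 bp wide with a score of 250.4 in control islets (chromosome 7, 149765793 to 149766964) and 1126 bp wide with a score of 208 in knockout islets (149765703 to 149766828). The knockout width was 96.1% of the control width (log2 ratio -0.06). Both borders of the knockout peak lay towards lower positions, the left one by 90 bp and the right one by 136 bp. Only 24.2% of control peaks and 23.3% of knockout peaks scored lower than the peak of the H19 window in their list. Without mm9 gene positions this peak was not assigned to the gene itself. Between the H19 and Igf2 windows (50 kb) there were 0 peaks in both lists.

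The Igf2 window also held 1 peak per list, and this was the largest gain in width among the paired peaks of the imprinted windows. It spanned 2109 bp in control islets (chromosome 7, 149843873 to 149845981, score 2356) and 3095 bp in knockout islets (149843976 to 149847070, score 2041). The knockout width was 147% of the control width, a difference of 986 bp and a log2 ratio of 0.55. The gain lay on 1 side: the right border was 1089 bp further out, while the left border lay 103 bp further in. A ratio this high or higher was found in 197 of 18299 pairs, so that 98.9% of all pairs had a lower one. Among the 11444 pairs in which both scores were 1000 or more, 6 reached this ratio (0.0524%). In width the peak was above 62.6% of the control list and above 90.7% of the knockout list. Its score was the lower one in the knockout list, but scores rank peaks within a list and show no change between lists. Between this window and the next (145 kb) each list had 3 peaks, with a covered length of 5693 bp (control) and 4932 bp (knockout).

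**Figure D2:**
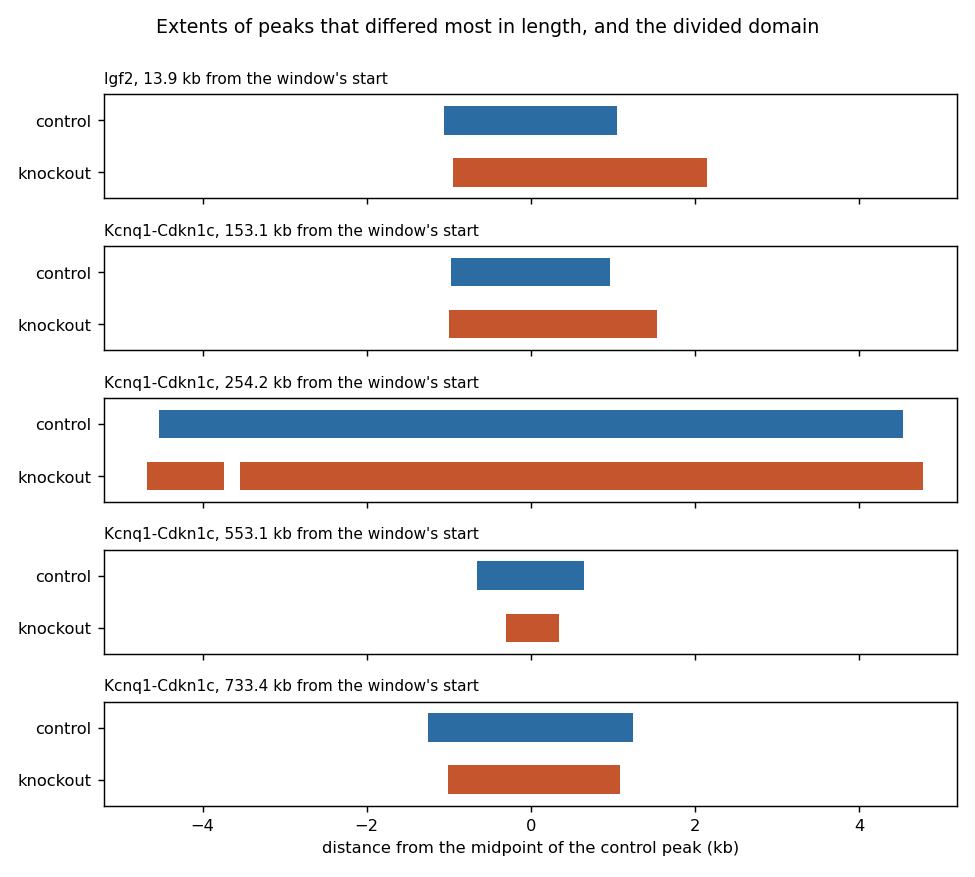
Extents to scale of the 4 shared regions that differed most in covered length, and of the control domain that was divided in the knockout list (x axis, kb from the midpoint of the control peak). The knockout bar of the Igf2 window ends 1089 bp beyond the control bar on the right, and the divided domain of the Kcnq1-Cdkn1c window has a gap of 205 bp.

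The Kcnq1-Cdkn1c window held most of the peaks, and its covered length was nearly equal in both lists. There were 14 control peaks that covered 32955 bp and 15 knockout peaks that covered 33454 bp, or 102% of the control length (log2 ratio 0.02). In each list 4 of these peaks had a score of 3100. In the RefSeq gene order (GRCm38.p6) Ins2, Ascl2, Tspan32, Cd81, Tssc4 and Trpm5 are among the genes between Igf2 and Kcnq1. Kcnq1ot1, the non-coding RNA that silences the cluster on the paternal allele, follows Kcnq1 and precedes Cdkn1c when genes are ordered by their lowest position. Kcnq1ot1 lies on the minus strand, so this order does not place its transcription start. Which of these genes a peak of the window belongs to was not determined, for lack of mm9 gene positions. The peaks are therefore given in order of position.

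At the start of the window, peaks were wider in the knockout list. The peak at 150089184 to 150091174 was 1991 bp wide with a score of 238 in control islets, and 2119 bp with a score of 433 in knockout islets (log2 ratio 0.09). The next, at 150153073 to 150155013, was 1941 bp with a score of 474 in control islets, and 2533 bp with a score of 1488 in knockout islets. Its log2 ratio of 0.38 was above that of 97.7% of all pairs, and the gain was mainly at the right border, which lay 563 bp further out. The knockout list also held a peak that no control peak overlapped, 1020 bp wide with a score of 126 (150083604 to 150084623). The nearest control peak was 4.56 kb away.

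The broadest H3K4me3 domain of all 4 windows followed. In control islets it was a single peak of 9075 bp (150254232 to 150263306, score 3100), wider than 99.9% of the control list. In knockout islets the same domain was called as 2 peaks, of 939 bp (150254087 to 150255025, score 282) and 8316 bp (150255231 to 150263546, score 3100), with 205 bp between them. Together they covered 9255 bp, 180 bp more than the control peak (log2 ratio 0.03). The domain was thus divided without loss of covered length. A peak before it, at 150238054 to 150241120, measured 3067 bp in the control and 3084 bp in the knockout list, with a score of 3100 in both (log2 ratio 0.01).

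In the middle of the window the differences went both ways. The peak at 150292476 to 150293882 was 1407 bp (score 1041) in control and 1651 bp (score 1073) in knockout islets, a log2 ratio of 0.23. The peak at 150479550 to 150482833 measured 3284 bp in the control and 3337 bp in the knockout list, with a score of 3100 in both (log2 ratio 0.02). Between these lay a control peak without a knockout partner, 572 bp wide with a score of 118 (150339853 to 150340424) and 45.6 kb from the nearest knockout peak. As a consequence the longest gap between peaks of the window was 139 kb in the control list and 185 kb in the knockout list.

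The greatest narrowing among the members was at 150553081 to 150554384. This control peak was 1304 bp wide with a score of 460.2, and its knockout partner (150553431 to 150554080) was 650 bp wide with a score of 138. The knockout width was 49.8% of the control width (log2 ratio -1.004), with the borders 350 bp further in on the left and 304 bp further in on the right. Of all pairs, 1.21% had a lower ratio. Among the 5651 pairs with both scores under 1000, 3.20% had a ratio as low or lower. Since the knockout peak covers under 50% of the control peak, this pair is lost when a reciprocal overlap of 50% is required.

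Of the 6 peaks at the far end of the window, 3 were wider in the knockout list, by 2 to 119 bp, and 3 were narrower. The widest of this stretch in both lists, at 150644822 to 150647555, was 2734 bp (control, score 2286) and 2736 bp (knockout, score 1786). The peak at 150687446 to 150688987 was 1542 bp (score 1507) in control and 1561 bp (score 1202) in knockout islets, and that at 150631042 to 150632160 was 1119 bp (score 309.8) and 1238 bp (score 386). These 3 thus had log2 ratios between 0.00 and 0.15. The peak at 150623388 to 150624828 went from 1441 bp (score 1594) to 1274 bp (score 1249), and that at 150650481 to 150651457 from 977 bp (score 399.9) to 901 bp (score 313). The last peak of the window, at 150733353 to 150735853, had a score of 3100 in both lists and was 2501 bp wide in control and 2095 bp wide in knockout islets (log2 ratio -0.26).

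**Figure D3:**
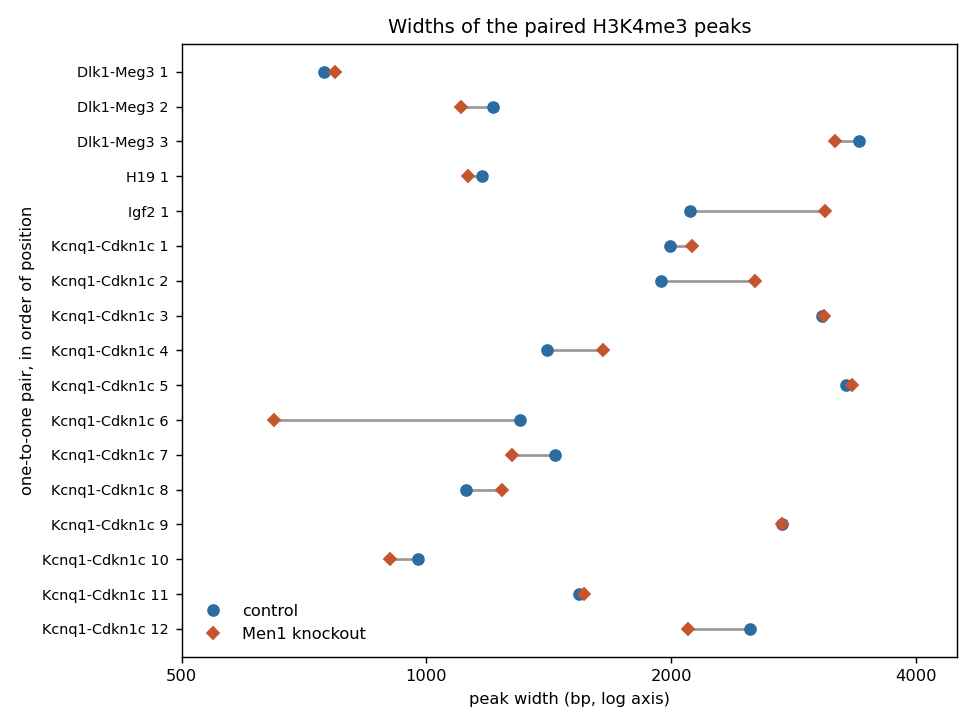
Width (x axis, bp, log axis) of the 17 pairs of a control and a knockout peak without any further overlap, in order of position within each window (y axis). Circles are control and diamonds knockout. The longest lines are those of the pair in the Igf2 window (2109 and 3095 bp) and of pair 6 in the Kcnq1-Cdkn1c window (1304 and 650 bp).

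At an overlap of at least 1 bp, the peaks without a partner in the imprinted windows all scored under 200, as did most such peaks of the whole lists. Of all 2775 control peaks without a partner, 370 scored 200 to under 1000 and 12 scored 1000 or more. Of all 1867 such knockout peaks, these counts were 147 and 6. Of the 22 control peaks, 4 overlapped no knockout peak, against 12.7% of all control peaks, and 3 of these 4 were in the Dlk1-Meg3 window. Of the 20 knockout peaks, 1 overlapped no control peak, against 8.71% of all knockout peaks. Of control peaks scoring 60 to under 100, 63.7% had no partner (exact 95% binomial interval 61.6 to 65.7), and both member peaks of that class had none. For scores from 100 to under 200 the share was 40.3% (38.3 to 42.2), and 2 of 3 member peaks had none. In the knockout list the share in the latter class was 23.0% (21.3 to 24.8), and 1 of 3 member peaks had none. At a score of 200 or more each of the 17 control and 17 knockout member peaks had a partner. Few peaks of the whole lists lacked one there: 8.62% of control and 3.39% of knockout peaks scoring 200 to under 1000. At 1000 or more the shares were 0.0926% and 0.0491%. With a reciprocal overlap of 50% required, 5 control and 3 knockout peaks had none. Those added were both peaks of the pair with the greatest narrowing (scores 460.2 and 138) and the 939 bp knockout piece of the divided domain (score 282). The shares over all peaks were not computed at this overlap, so these counts describe the members alone. The intervals treat peaks as independent and do not cover variation between libraries.

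The widths of the imprinted peaks were centred near no difference. Over the 17 pairs the log2 width ratio (knockout over control) had a median of 0.01 (95% order-statistic interval -0.12 to 0.09), and the values ranged from -1.004 to 0.55 (SD 0.32). Over all 18299 pairs the median was -0.11 (SD 0.29). The interval of the members includes the median of all pairs. The knockout peak was narrower in 7 of 17 pairs, against 73.8% of all pairs, and wider in 10, against 26.0%. Of the wider ones, 8 were in the Kcnq1-Cdkn1c window, which had 12 pairs. A narrowing of 1.5-fold or more was found in 1 pair, against 6.11% of all pairs, and a widening of 1.5-fold or more in 0 pairs, against 0.945%. The pair of the Igf2 window lay just short of it.

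The higher-scoring member pairs were likewise centred near 0. In the 9 member pairs with both scores of 1000 or more, the median log2 ratio was 0.01, with 3 narrower and 6 wider in the knockout list. In all such pairs of the lists (11444) the median was -0.10, with 75.4% narrower and 24.4% wider. In the 7 member pairs with both scores under 1000 the median was -0.06, with 4 narrower and 3 wider. In all such pairs (5651) the median was -0.18, with 70.4% narrower and 29.5% wider. The member pair at 150153073 (scores 474 and 1488, log2 ratio 0.38) falls in neither class. The other pairs of chromosome 7 (1292) had a median of -0.09, and those of chromosome 12 (677) a median of -0.11. Neighbouring peaks share a locus and these counts are small, so they describe the windows and establish no difference from the rest of the genome.

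**Figure D4:**
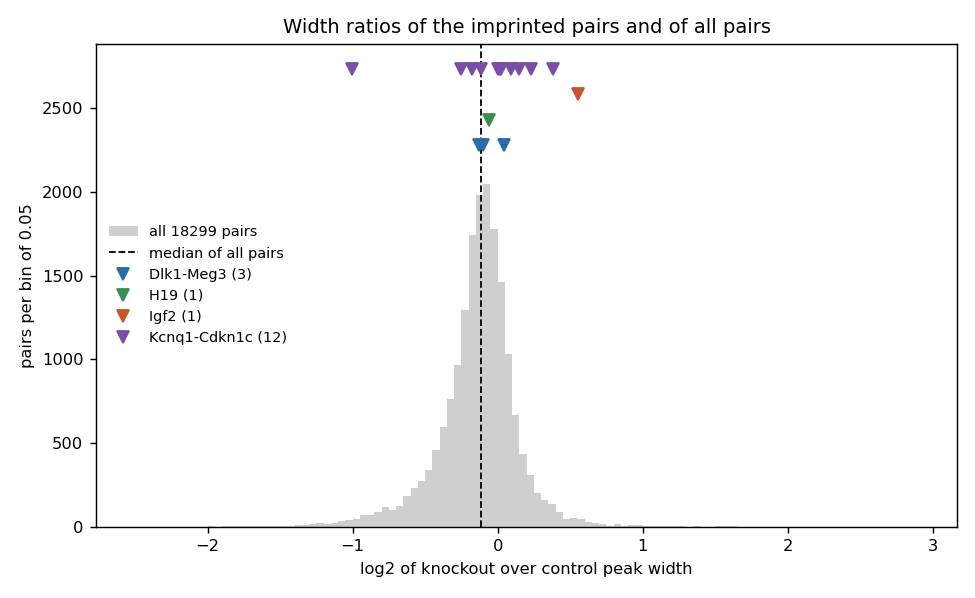
Histogram of the log2 width ratio (knockout over control, bins of 0.05) of all 18299 pairs (grey, y axis: pairs per bin), with the 17 pairs of the imprinted windows as triangles above it, 1 row per window. The dashed line is the median of all pairs (-0.11), and 10 of the 17 triangles lie above 0.

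Borders moved in mixed directions. Both borders of the knockout peak lay further in at 6 of 17 member pairs and both lay further out at 3, while 8 pairs had 1 border in and 1 out. Over all pairs, both borders lay further in at 48.9% and both further out at 10.9%, while 7261 of 18299 had 1 border in and 1 out. The median inward shift over the member pairs was 16 bp at the left border and 10 bp at the right, against 66 and 70 bp over all pairs. When touching peaks were joined into regions, which adds the divided domain, 11 of 18 regions were longer and 7 were shorter in the knockout list, with a median log2 ratio of 0.01. Over all 18968 regions present in both lists, 26.1% were longer and 73.8% were shorter, with a median of -0.11. The knockout list had more peaks than the control list in 1 of the 18 regions, the divided domain, and in 2.73% of all regions.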

How the data were processed

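H3K4me3 was measured by ChIP-seq with 1 library per genotype. Each deposited list gives a chromosome, start, end and score per peak. The score is the authors' deposited value, with MACS peak names, and the lists do not state its scale. Bowtie, MACS 1.4.2 and the build mm9 are named in the submitters' processing notes. How the input libraries were used, which filters were set and whether animals were combined is not given in the sources used here. The lowest scores were 60.01 in the control and 60.02 in the knockout list. The lists were matched to their samples by the genotype, age and mark in their names. The names also hold "2nd" and "swig_model_p6", which are not explained in the sources used here. No per-sample column was left unused (0). The other 16 samples were not analysed here.

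Positions are counted from 1. Shared meant an overlap of at least 1 bp, and widths were compared over pairs that overlapped only each other, as log2 of knockout over control. Overlap, pairing and joining were tested on simulated data, and the overlap count was checked with bedtools 2.31.1. Values were computed in Python 3.11.15 with pandas 2.3.3 and scipy 1.17.1. All peaks of the windows are named. The windows, members and lists were chosen with earlier results of these data known. RefSeq sequence and gene order are of GRCm38.p6 and were used for names, order and upstream sequence alone. Alternatives were a minimum score, merging, window bounds, equal list sizes and other definitions of overlap.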

Additional observations from a re-analysis of the deposited data

How the results depend on the processing

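Of 199 values recomputed under the alternatives, 180 stayed close to the value reported, 18 moved and 1 changed sign. Close means within 1.5 times for a count or length, within the 95% interval for a median log2 ratio, within the SD over all pairs (0.29) for a single log2 ratio and within 1 percentage point for a place among promoters. For the 19 values given as a difference of widths in bp the sign alone was compared. The ratio of covered length was recomputed over the 4 windows together and not for each window. With peaks scoring at least 100 alone, the log2 ratio of the length covered in the 4 windows turned from -0.04 to 0.011. This was because 2 weak control peaks of the Dlk1-Meg3 window left the count. That window then held 4 control peaks with 6162 bp in place of 6 with 7607 bp. Its 3 knockout peaks with 5051 bp were unchanged, so the lists differed less there. At this setting 2 control peaks without a partner remained in place of 4, and the share over all peaks was not computed. Widening the windows by 10 kb brought the Igf2 window to 2 peaks in each list, with 6027 bp for control and 6595 bp for knockout. The knockout length was still the greater, but by a smaller proportion than in the original window (2109 and 3095 bp). With a reciprocal overlap of 50%, 3 knockout peaks had no partner in place of 1, and the share over all peaks was not computed. The number of pairs stayed at 17, since the pair at 150553081 was lost and the control domain of 9075 bp formed a pair with its larger knockout piece (log2 ratio -0.13). Among peaks in the upper 50% of scores, 0 control and 0 knockout member peaks lacked a partner. The cut was the median score of each list, 1987.5 for control and 1591.5 for knockout, and the share over all peaks was not computed at it. In the larger class of all peaks scoring 1000 or more, 0.0926% of control and 0.0491% of knockout peaks lacked a partner. With both peaks in the upper 50% of scores, 6 member pairs were left, of which 4 were wider in the knockout list. The share of all such pairs that were wider was not computed. The median over member pairs stayed between 0.00 and 0.01 under the alternatives run on the log2 scale and was 17 bp as a difference of widths, and over all pairs it stayed below 0, moving from -0.1135 to -0.1102 with scores of at least 100 and to -0.09377 with both peaks in the upper 50%. The 6 upstream sequences with CpG sites moved by over 1 percentage point in their place among promoters when CpG was counted as observed over expected, to between 9.25% and 87.1%. No paired analysis was possible because there is 1 library per genotype. The depth is not known. Whether weak peaks present in 1 list alone lay at the edge of what was detectable in the other was not tested.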

Other observations

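Of 15 other genes of these imprinted domains, 12 had upstream sequence in the RefSeq table (GRCm38.p6). The 250 bases before the start held 21 CpG dinucleotides for Dio3 and for Phlda2, 19 for Ascl2, 17 for Tssc4, 16 for Cd81 and 10 for Mirg. Kcnq1ot1 had 5, Trpm5 had 4, Tspan32 had 1, and Rian and Slc22a18 had 0. The 3 starts of Osbpl5 had 14, 1 and 18. Whether these starts carried a peak was not determined, since the peak positions are of another build.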
